A study of Mus musculus with 8 samples.

Results

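The genes of insulin, mTOR and AMPK signalling were followed in hepatocytes that carried or lacked the cannabinoid 1 receptor gene Cnr1. A list of 45 mouse genes was used, and a gene was a member when the accession of an array spot mapped to it. All 45 had a named probe, among 21368 genes named in all. Of the 45, 42 were tested, each with a probe that the scanner software called well above background in 4 or more of the 8 arrays, and 33 of them reached this on all 8. The adapter Sos1 and the transcription factor Foxo3 were above background on no array, and the protein kinase C gene Prkce on 1 array of each genotype, so these 3 were not tested. The whole series had 11072 tested genes.

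The arrays compared 4 hCNR1-/- with 4 hCNR1+/+ samples of isolated hepatocytes, replicates 1 to 4 of each. Both groups came from male mice aged 12 to 14 weeks on a Standard diet. The hCNR1-/- group (strain label CNRO Alb-Cre) carried floxed Cnr1 alleles and Cre recombinase driven by the albumin promoter, which is active in hepatocytes, and the hCNR1+/+ group (strain label CNRO) were control littermates. The labels do not say whether each sample was 1 mouse, so p-values measure the spread between these samples, which may be technical.

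Insulin binds its receptor, which phosphorylates the docking proteins IRS1 and IRS2. These recruit PI3K, whose lipid product brings AKT to PDPK1. AKT then restrains GSK3, FOXO factors and the TSC complex, and the GTPase RHEB, freed from TSC, activates mTORC1, which promotes translation through S6 kinase and the 4E-BPs. AMPK, an energy sensor activated by LKB1, opposes mTORC1. In the liver these signals set the balance between glucose production, glycogen storage and lipid synthesis. Much of this control acts on the phosphorylation of proteins, which an mRNA array does not measure.

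Of the members, the mRNA of Irs1 alone passed the adjusted test, and the promoters of Irs1 and of its paralogue Irs2 are shown here because the genes encode the docking proteins on which that comparison turned. Both sequences are the RefSeq window of 250 bases before to 50 bases after the start, on the minus strand of GRCm38.p6. The Irs1 window is chr1:82291390-82291689 and the Irs2 window is chr8:11008880-11009179. Capitals mark the E-box letters CACGTG, a motif bound by basic helix-loop-helix factors.
Irs1: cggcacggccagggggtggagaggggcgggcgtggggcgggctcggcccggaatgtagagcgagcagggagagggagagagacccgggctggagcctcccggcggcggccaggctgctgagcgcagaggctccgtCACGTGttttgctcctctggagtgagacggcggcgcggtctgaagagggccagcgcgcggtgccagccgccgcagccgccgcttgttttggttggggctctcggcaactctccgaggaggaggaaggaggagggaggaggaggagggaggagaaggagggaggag
Irs2: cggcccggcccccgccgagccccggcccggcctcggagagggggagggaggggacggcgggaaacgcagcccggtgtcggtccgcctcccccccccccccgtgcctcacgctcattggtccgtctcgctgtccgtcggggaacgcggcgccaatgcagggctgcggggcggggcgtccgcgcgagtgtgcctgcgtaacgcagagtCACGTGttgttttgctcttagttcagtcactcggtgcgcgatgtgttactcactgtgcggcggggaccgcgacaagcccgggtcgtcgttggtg
The E-box ended 109 bases before the Irs1 start and 38 bases before the Irs2 start. The guanine and cytosine content was 71.3% for Irs1 and 72.0% for Irs2. Promoters were given for 39 of the 45 members, 54 windows in all; Insr, Deptor, Rps6kb2, Eif4ebp1, Trib1 and Prkce had no entry. Their median guanine and cytosine content was 64.0%, against 52.7% over 32851 windows of the same length, and the median number of CpG steps was 23 against 7. The E-box letters, which read the same on both strands, were in 3 of the 54 windows (5.56%), those of Irs1, Irs2 and Rheb, against 7.15% of all windows. The cAMP response element TGACGTCA, also palindromic, was in 1 window (1.85%), that of Prkcz, against 1.79%. The FOXO letters GTAAACA, searched on both strands, were in 3 windows (5.56%), those of Akt1, Sesn1 and Stk11, against 3.65%. These are matches of letters only.

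The arrays differed in brightness. The 75th percentile of intensity was 62.0 to 139 on the hCNR1+/+ arrays and 29.3 to 124 on the hCNR1-/- arrays. The fourth hCNR1-/- array was the dimmest and stood apart, with a mean correlation of 0.94 with its own group against 0.96 to 0.98 for the other arrays. All 8 arrays were on 1 slide, with each genotype in its own row, so the effect of the row and that of the genotype cannot be told apart. The only named Cnr1 probe reached the level well above background on 0 of 8 arrays, so the deletion could not be checked. Of the 12 hepatocyte markers 11 were tested, and each was well above background on all 8 arrays. Of 14 Kupffer cell markers 12 were tested, and all 12 had a negative log2 fold change, with a median of -0.84. The log2 of their summed signal was 6.45 to 7.42 on the hCNR1+/+ arrays and 5.71 to 6.16 on the hCNR1-/- arrays, and of the 14 Timd4 was above background on no array. The same sum was 6.39 to 6.70 against 6.77 to 8.01 for the 3 tested of 12 lymphocyte markers, with 8 of the 12 above background on no array. It was 7.13 to 7.63 against 6.47 to 7.08 for the 2 tested of 10 neutrophil markers, with 6 of the 10 above background on no array. Those 2 disagreed, with log2 fold changes of -0.80 for Csf3r and 0.70 for Elane. The groups overlapped for endothelial, stellate and cholangiocyte markers. Fewer cells of a type and less RNA per cell cannot be told apart in bulk samples. The part of array brightness and of RNA from other cells in the results on the members was not tested.

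The first question was how many of the members differed between the genotypes. Values are log2 of the spot intensity minus the 75th percentile of the array, called log2 signal, and a log2 fold change is the hCNR1-/- mean minus the hCNR1+/+ mean. Of the 42 members tested, 1 rose in hCNR1-/- hepatocytes at an adjusted p below 0.05, where 2.94% of all tested genes rose, and 0 fell, where 1.3% of all tested genes fell. The member that rose was Irs1. At an unadjusted p below 0.05, limma gave 5 members with a positive log2 fold change (14.7% of all tested genes) and 2 with a negative one (6.92%). At the threshold of the study, a fold change above 2 with p below 0.05, 1 member was higher (4.78% of all tested genes) and 1 was lower (3.75%). These were Irs1 and Trib1. The shares are those of the processing used here. At this threshold the paper reported far more downregulated than upregulated genes, unlike these shares. Its figure legend gives a smaller n than the 4 per genotype used here. Over all tested genes, 529 were higher and 415 lower at this threshold as processed here, and 427 and 326 with median scaling. With no scaling between arrays they were 87 and 630, so the balance depended on the processing. The median log2 fold change of the members was 0.18 and that of all tested genes 0.08 (-0.37 and -0.47 with no scaling between arrays), and 26 of 42 members had a positive value where 56.6% of all tested genes had one. The 95% interval of the log2 fold change lay within 2-fold in either direction for 22 of 42 members (52.4%) and for 44.9% of all tested genes, so for the other members a 2-fold difference was within the interval.

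**Figure D1:**
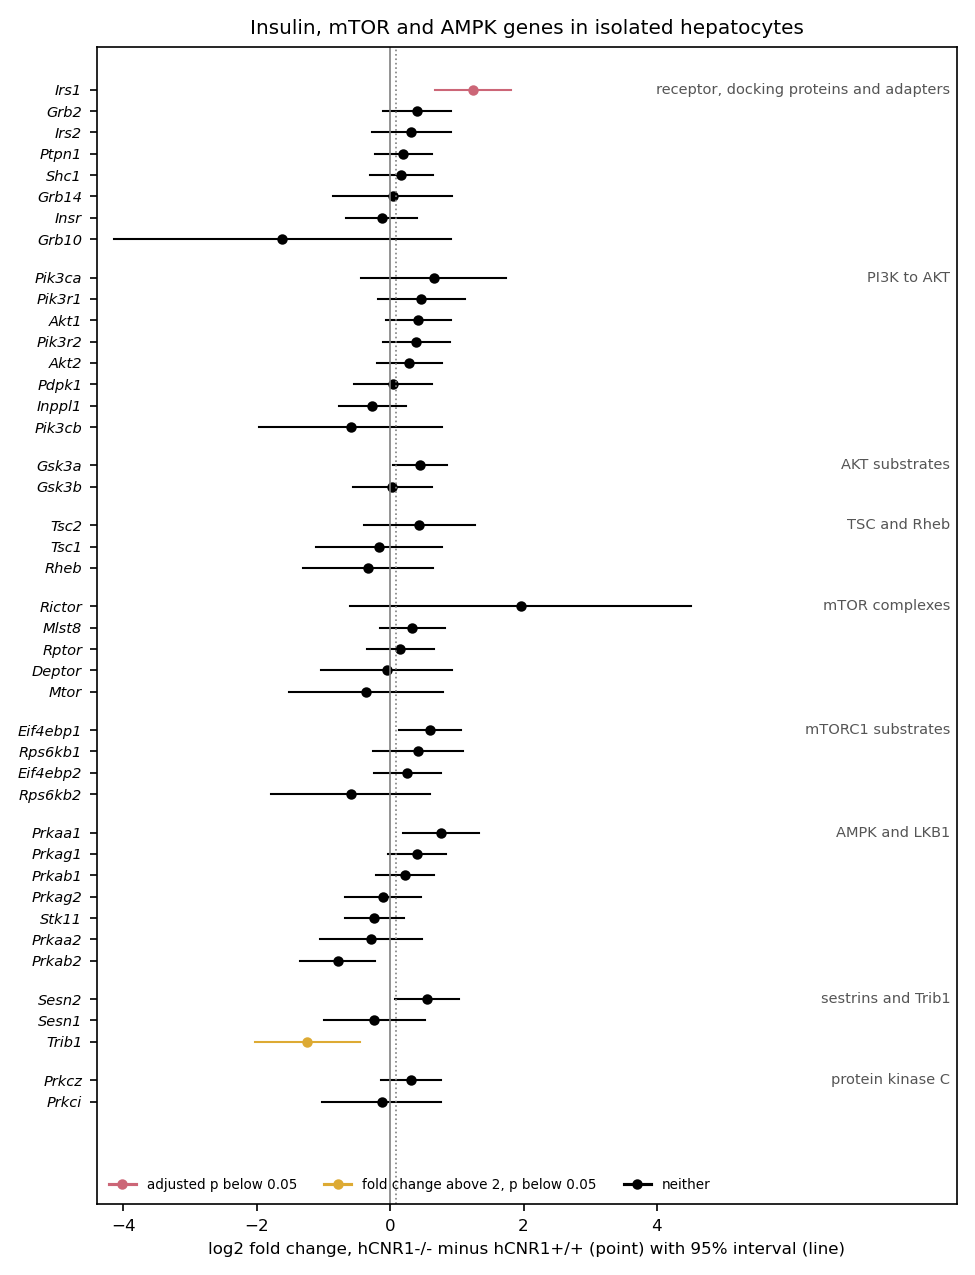
The log2 fold change of each of the 42 tested members (point, hCNR1-/- minus hCNR1+/+, 4 arrays each) with its 95% interval (line), grouped by role; the solid vertical line is 0 and the dotted one the median of all tested genes, 0.08. The interval of Irs1 (0.68 to 1.81) and that of Trib1 (-2.03 to -0.45) exclude 0, and Rictor and Grb10 have the widest intervals.

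Irs1, the docking protein that couples the insulin receptor to PI3K, rose 2.36-fold in hCNR1-/- hepatocytes. Its log2 signal on hCNR1+/+ arrays 1 to 4 was -0.53, -0.47, -0.52 and -1.20. On hCNR1-/- arrays 1 to 4 it was 0.95, 0.37, 0.68 and 0.24. The groups did not overlap, and the fourth array was the lowest of each group. The log2 fold change was 1.24 (SE 0.25, adjusted p = 0.033). A second, dimmer Irs1 probe cleared the background on 0 of 4 control arrays and on 2 of 4 hCNR1-/- arrays. Its values were -3.63 to -2.37 on the hCNR1+/+ arrays and -2.43 to -1.05 on the hCNR1-/- arrays, so the groups overlapped. Most of these values were not well above background, so the size of its difference could not be measured. The adjusted call of the brighter probe was lost when any 1 array other than the fourth hCNR1-/- array was left out, with log2 fold changes of 1.07 to 1.31 and the highest adjusted p, 0.10, without hCNR1+/+ replicate 3. Without the fourth hCNR1-/- array it was kept (1.35, adjusted p = 0.016). It was lost under 7 of 12 other ways of processing, among them median scaling (adjusted p = 0.53) and normexp background correction (log2 fold change 0.67, adjusted p = 0.21). Over all tested genes, 25 and 28 rose at the adjusted threshold under these 2, against 325 as reported.

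The other docking protein and the receptor did not pass the test. Irs2 log2 signal was 3.89 to 4.12 on the hCNR1+/+ arrays and 3.93, 4.09, 4.12 and 5.05 on the hCNR1-/- arrays, the highest value being that of the fourth array. Its log2 fold change was 0.32 (SE 0.27, adjusted p = 0.52), and 0.07 without that array. The per-array log2 ratio of Irs1 to Irs2 differed by 0.92 between genotypes, with overlapping groups (two-sided exact permutation p = 0.11). Insr, the receptor itself, had a log2 fold change of -0.13 (SE 0.24), and its 3 probes above background gave differences from -0.52 to 0.07, so they disagreed in sign.

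Among the adapters and regulators at the receptor, Grb2, which links the receptor to RAS, had values of 3.90 to 4.02 on the hCNR1+/+ arrays. On hCNR1-/- arrays 1 to 3 it had 4.52, 4.53 and 4.61, and on the fourth 3.77. Its log2 fold change was 0.40 (adjusted p = 0.35), and 0.60 (adjusted p = 0.029) without the fourth array, where 10.1% of all tested genes passed the adjusted threshold upward. A second Grb2 probe differed by -0.09. Shc1, another RAS adapter, and Ptpn1, the phosphatase that switches the receptor off, had log2 fold changes of 0.17 and 0.20. Grb14, an inhibitor of the receptor that is abundant in liver, had 0.04 (SE 0.40). Grb10, a related inhibitor, rested on 1 array. It was -1.86, -1.41 and -1.21 on hCNR1+/+ arrays 1, 2 and 4, but 3.98 on array 3, and -2.47 to -1.12 on the hCNR1-/- arrays. Its log2 fold change was -1.62 (SE 1.13), and -0.25 without hCNR1+/+ replicate 3.

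**Figure D2:**
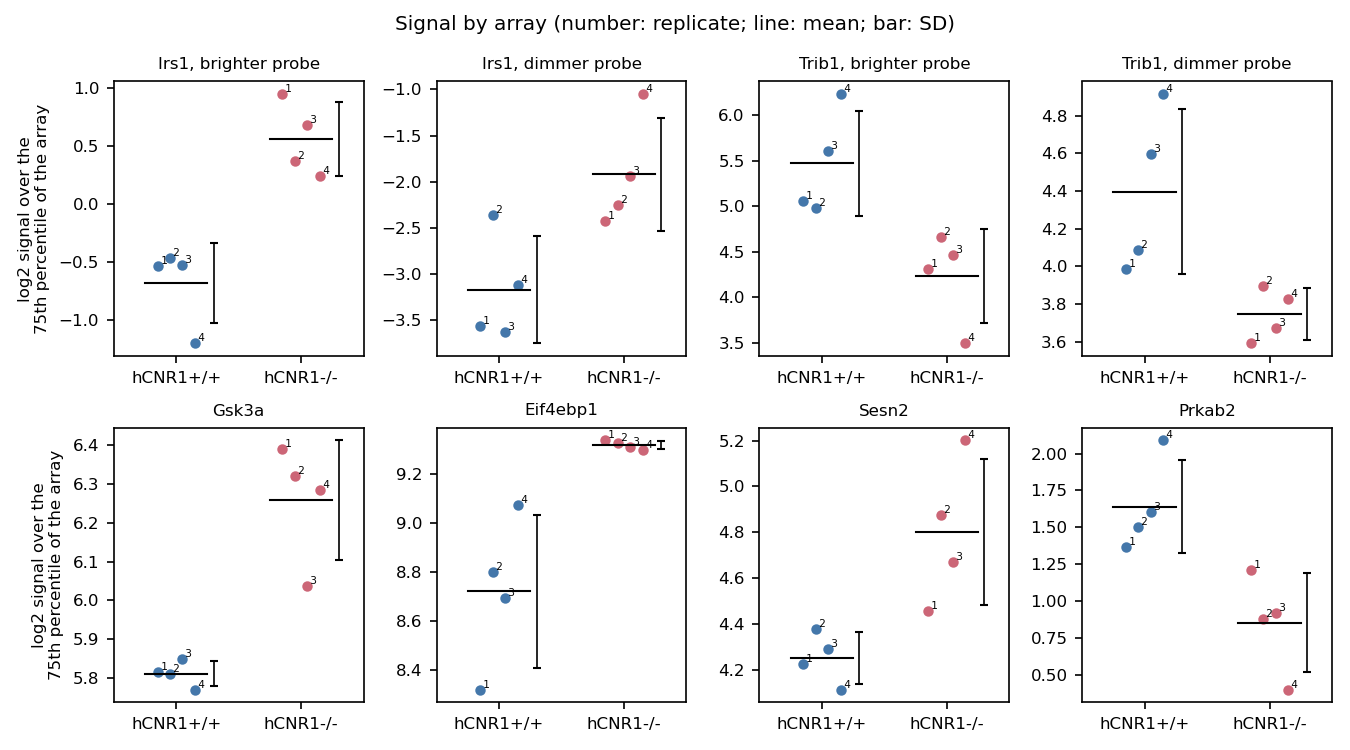
Log2 signal (over the 75th percentile of the array) of 6 members, with both probes of Irs1 and Trib1, on each of the 4 hCNR1+/+ and 4 hCNR1-/- arrays; numbers are replicates, horizontal lines are means and bars are SD, and the vertical scale differs between panels. The groups do not overlap in any panel except that of the dimmer Irs1 probe.

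From PI3K to AKT, 0 of 8 tested members passed the adjusted test or an unadjusted p below 0.05. Of all tested genes, 2.94% rose and 1.3% fell at the adjusted threshold. At the unadjusted one, 14.7% had a positive log2 fold change and 6.92% a negative one. The regulatory subunits Pik3r1 and Pik3r2 had log2 fold changes of 0.47 (SE 0.29) and 0.39 (SE 0.23). The catalytic subunits Pik3ca and Pik3cb had 0.65 (SE 0.48) and -0.59 (SE 0.61), and Pik3cb was 0.14 without the fourth hCNR1-/- array, on which it was -2.41. Akt1, one of the genes for the central kinase of the pathway, had the smallest p here. Its log2 signal was 5.78, 5.57, 5.43 and 5.18 on hCNR1+/+ arrays 1 to 4, and 6.19, 5.94, 5.60 and 5.92 on hCNR1-/- arrays 1 to 4. The hCNR1-/- arrays were the higher ones on the whole, with an overlap of 1 pair of values, and the log2 fold change was 0.42 (SE 0.22, adjusted p = 0.29). Akt2, the form most tied to insulin action in liver, had 0.29 (SE 0.22), and its 3 probes differed by 0.07 to 0.29. Inppl1, which encodes the lipid phosphatase SHIP2, had -0.27 (SE 0.22).

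Pdpk1, the kinase that activates AKT, gave different answers on different probes. The brightest of its 3 probes, the one entered in the test, was 2.88, 3.14, 2.50 and 2.20 on hCNR1+/+ arrays 1 to 4. It was 2.73, 2.36, 3.06 and 2.73 on hCNR1-/- arrays 1 to 4, and the log2 fold change was 0.04 (SE 0.26). The second probe lay between 2.10 and 2.27 on the hCNR1+/+ arrays and between 2.61 and 3.34 on the hCNR1-/- arrays, a difference of 0.70 without overlap. The third was 0.75, 0.73, 0.81 and 0.63 on hCNR1+/+ arrays 1 to 4 and 2.33, 1.85, 2.73 and 3.29 on hCNR1-/- arrays 1 to 4, a difference of 1.82 without overlap. For each of these 2 probes the two-sided exact permutation p was 0.029, the smallest that 4 against 4 arrays allow, and 12.7% of all tested genes were higher without overlap. The brightest probe carries the accession of one Pdpk1 transcript, and the other 2 share that of another. The probes are a description chosen after their values were seen.

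**Figure D3:**
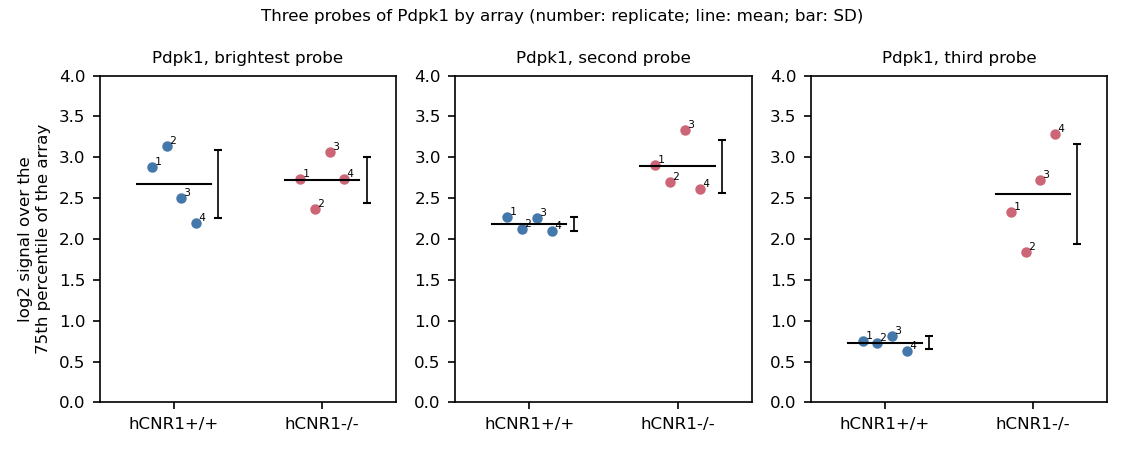
Log2 signal (over the 75th percentile of the array) of the 3 Pdpk1 probes on each array; numbers are replicates, horizontal lines are means and bars are SD. The groups overlap for the brightest probe (difference 0.04) and are apart for the second (0.70) and the third (1.82).

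Of the AKT substrates, Gsk3a, a kinase that inhibits glycogen synthase, was tight in the control group. Its log2 signal was 5.81, 5.81, 5.85 and 5.77 on hCNR1+/+ arrays 1 to 4, and 6.39, 6.32, 6.04 and 6.29 on hCNR1-/- arrays 1 to 4. The groups did not overlap, but the log2 fold change of 0.45 (SE 0.18) did not pass the adjusted test (adjusted p = 0.19) and was -0.11 with no scaling between arrays, where the median of all tested genes was -0.47. In all, 4 of 42 members were higher in hCNR1-/- hepatocytes without overlap, Irs1, Gsk3a, Eif4ebp1 and Sesn2, where 12.7% of all tested genes were. Prkab2 and Trib1, 2 of 42, were lower without overlap, where 5.04% of all tested genes were. Gsk3b, the paralogue of Gsk3a, had a log2 fold change of 0.03 (SE 0.26), and its 3 probes gave -0.44 to 0.03.

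In the TSC complex and its target, 0 of 3 members passed an unadjusted p below 0.05. Of all tested genes, 14.7% passed it with a positive log2 fold change and 6.92% with a negative one. Tsc2, which carries the activity that shuts off RHEB, had the smallest p of the 3. It was -2.59, -2.59, -1.78 and -1.95 on hCNR1+/+ arrays 1 to 4 and -2.01, -2.10, -2.31 and -0.72 on hCNR1-/- arrays 1 to 4. The probe was well above background on 2 arrays of each genotype, the groups overlapped, and the log2 fold change of 0.44 (SE 0.37) was 0.08 without the fourth hCNR1-/- array. Tsc1, its partner, had -0.17 (SE 0.42) and Rheb -0.33 (SE 0.43). On the fourth hCNR1-/- array Tsc1 was 0.12 and Rheb 1.24, and without it their log2 fold changes were 0.24 and 0.14.

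Among the mTOR complex genes, 0 of 5 passed the adjusted test or an unadjusted p below 0.05 with limma. Of all tested genes, 2.94% rose and 1.3% fell at the adjusted threshold. At the unadjusted one, 14.7% had a positive log2 fold change and 6.92% a negative one. Mtor, the kinase of both complexes, had -0.37 (SE 0.52), and 0.16 without the fourth hCNR1-/- array. Rptor, the mTORC1 scaffold, had 0.15 (SE 0.23), Mlst8, a subunit of both complexes, 0.33 (SE 0.22), and Deptor, an inhibitor of both, -0.05 (SE 0.44). Rictor, the mTORC2 scaffold, had the largest log2 fold change of the tested members, 1.96, but an SE of 1.14. It was -2.01, -2.42, -2.30 and -3.13 on hCNR1+/+ arrays 1 to 4 and -1.84, -2.28, -1.60 and 3.68 on hCNR1-/- arrays 1 to 4. The fourth array alone was far above the rest, and without it the log2 fold change was 0.56 (adjusted p = 0.22).

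Of the mTORC1 substrates, Eif4ebp1, the translational repressor 4E-BP1, was lowest on the first control array. It was 8.32, 8.80, 8.69 and 9.07 on hCNR1+/+ arrays 1 to 4, and 9.33, 9.33, 9.31 and 9.30 on hCNR1-/- arrays 1 to 4. All 4 hCNR1-/- values were above the highest control value and close together. The log2 fold change of 0.59 (SE 0.21) did not pass the adjusted test (adjusted p = 0.14). It was 0.04 with no scaling between arrays, where the median of all tested genes was -0.47. With quantile normalization it was 0.25 (that median -0.01), and with array weights 0.66 (that median 0.18). Its paralogue Eif4ebp2 had 0.25 (SE 0.22), and the S6 kinase genes Rps6kb1 and Rps6kb2 had 0.41 (SE 0.30) and -0.59 (SE 0.53).

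AMPK is a trimer of a catalytic alpha, a scaffolding beta and a regulatory gamma subunit, and each has paralogues. None of its 6 tested genes or of Stk11, which encodes LKB1, passed the adjusted test with limma, where 2.94% of all tested genes rose and 1.3% fell. At an unadjusted p below 0.05, 1 of 7 had a positive log2 fold change (Prkaa1, against 14.7% of all tested genes). With a negative one there was 1 (Prkab2, against 6.92%). Prkab2, the beta 2 subunit, was 1.36, 1.51, 1.60 and 2.09 on hCNR1+/+ arrays 1 to 4 and 1.21, 0.88, 0.92 and 0.40 on hCNR1-/- arrays 1 to 4. The hCNR1-/- values were all the lower ones, with a log2 fold change of -0.79 (SE 0.25, adjusted p = 0.11). Prkaa1, the alpha 1 subunit, was -0.48, -1.26, -0.97 and -0.82 on hCNR1+/+ arrays 1 to 4 and -0.15, -0.62, 0.19 and 0.08 on hCNR1-/- arrays 1 to 4. One pair of values overlapped, and the log2 fold change was 0.76 (SE 0.25, adjusted p = 0.13). Prkaa2 had -0.29 (SE 0.34), Prkab1 0.23 (SE 0.20), Prkag1 0.40 (SE 0.19), Prkag2 -0.11 (SE 0.26) and Stk11 -0.24 (SE 0.20).

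Ratios of 15 pairs of paralogues or partner genes were compared, because a ratio within an array does not depend on the scaling between arrays. After Benjamini-Hochberg adjustment over the 15 pairs, 0 passed (two-sided exact permutation tests, smallest adjusted p = 0.21). Pairs could have passed only if most of the 15 had reached the smallest p that 4 against 4 arrays allow, 0.029. The 2 pairs that reached it had an adjusted p of 0.21, so the count of 0 does not tell whether any ratio differed. Before adjustment, 2 pairs had a p below 0.05. These were AMPK pairs without overlap between genotypes. How often the ratios of other gene pairs lack overlap was not computed. Of single genes, 12.7% were higher and 5.04% were lower without overlap. The log2 ratio of Prkaa1 to Prkaa2 was higher by 1.05 in hCNR1-/- hepatocytes (two-sided exact permutation p = 0.029), where the nearest values of the groups were -2.08 and -2.01. That of Prkab1 to Prkab2 was higher by 1.01 (two-sided exact permutation p = 0.029), with -1.71 to -1.28 on the hCNR1+/+ arrays and -0.68 to -0.15 on the hCNR1-/- arrays. For Prkag1 to Prkag2 the difference was 0.51 with overlap (two-sided exact permutation p = 0.057). A ratio shows unequal change of its members, not which of them changed.

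**Figure D4:**
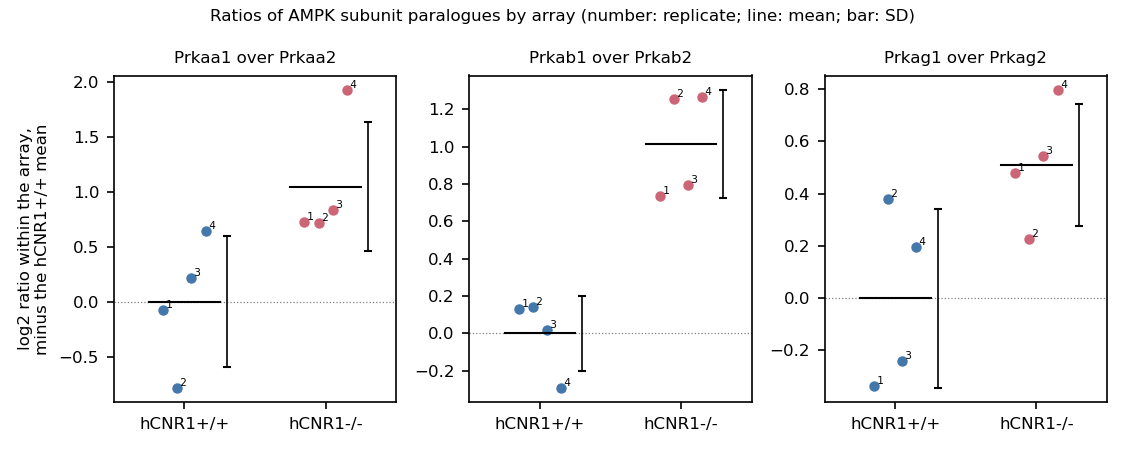
The log2 ratio of each pair of AMPK paralogues within each array, minus its hCNR1+/+ mean (dotted line), by genotype; numbers are replicates, horizontal lines are means and bars are SD. The groups do not overlap for Prkaa1 over Prkaa2 (difference 1.05) or Prkab1 over Prkab2 (1.01) and overlap for Prkag1 over Prkag2 (0.51).

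Trib1 encodes a pseudokinase adapter that brings proteins to a ubiquitin ligase and whose relatives bind AKT. Its log2 signal was 5.06, 4.99, 5.61 and 6.24 on hCNR1+/+ arrays 1 to 4 and 4.31, 4.66, 4.47 and 3.49 on hCNR1-/- arrays 1 to 4. The groups did not overlap, and the fourth array of each genotype was its extreme. Trib1 was 2.36-fold lower in hCNR1-/- hepatocytes (log2 fold change -1.24, SE 0.35), past the fold threshold but not the adjusted one (adjusted p = 0.078). A second Trib1 probe was 3.99 to 4.91 on the hCNR1+/+ arrays and 3.59 to 3.90 on the hCNR1-/- arrays, again without overlap, with a difference of -0.65. The fold threshold was missed without hCNR1+/+ replicate 4 (-0.98), without hCNR1-/- replicate 4 (-0.99), with array weights (-0.92) and with the mean of its probes (-0.94).

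The sestrins are stress-induced proteins that raise AMPK activity and hold back mTORC1. Sesn2 was 4.23, 4.38, 4.29 and 4.11 on hCNR1+/+ arrays 1 to 4 and 4.45, 4.88, 4.67 and 5.20 on hCNR1-/- arrays 1 to 4. The hCNR1-/- values were all the higher ones, with a log2 fold change of 0.55 (SE 0.21, adjusted p = 0.18). Sesn1 had -0.24 (SE 0.34). Of the atypical protein kinase C genes, which act in insulin signalling to lipid synthesis, Prkcz was 1.92, 2.02, 1.58 and 1.63 on hCNR1+/+ arrays 1 to 4 and 2.32, 1.96, 1.94 and 2.19 on hCNR1-/- arrays 1 to 4. The groups overlapped, with a log2 fold change of 0.31 (SE 0.20, adjusted p = 0.41), and its 3 probes gave differences from -0.66 to 0.31. The probe with -0.66 was -0.42 to 0.21 on the hCNR1+/+ arrays and -1.46 to -0.46 on the hCNR1-/- arrays, so on it the groups did not overlap. Among all tested genes, 5.04% were lower without overlap. Prkci had -0.13 (SE 0.40).

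The rest of the pathway was described with a list of 78 further genes, of which 63 were tested. None passed the adjusted test with limma in either direction, where 2.94% of all tested genes rose and 1.3% fell. Of the 63, 6 had an unadjusted p below 0.05 and a positive log2 fold change (14.7% of all tested genes), and 5 a negative one (6.92%). The median log2 fold change was -0.02, with 31 positive and 32 negative values. At the fold threshold 1 was higher (4.78% of all tested genes) and 3 were lower (3.75%). The higher one was Fnip1, a partner of folliculin that binds AMPK, with a log2 fold change of 1.93 (SE 0.60, adjusted p = 0.10). Its values were -2.21 to 0.79 on the hCNR1+/+ arrays and 1.23 to 1.95 on the hCNR1-/- arrays. Fnip1 was not past the fold threshold with no scaling or with normexp background. Nor was it with only probes well above background on all 8 arrays. Among the lower ones, Ddit4, which encodes the mTORC1 inhibitor REDD1, was 7.28, 7.33, 7.83 and 8.65 on hCNR1+/+ arrays 1 to 4 and 6.36, 6.76, 6.53 and 6.64 on hCNR1-/- arrays 1 to 4. Its log2 fold change was -1.20 (SE 0.31, adjusted p = 0.062). Socs3, a cytokine-induced inhibitor of IRS proteins, had -1.35 (SE 0.51, adjusted p = 0.17), and Prr5l, which binds mTORC2, had -1.04 (SE 0.28, adjusted p = 0.067). Without hCNR1+/+ replicate 4, Prr5l alone of the 3 lower genes was past the fold threshold, and without hCNR1-/- replicate 4, Ddit4 alone.

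The last question was whether genes known to respond to insulin in liver differed. Of 10 listed, 9 were tested, and 0 passed the adjusted test with limma in either direction. Of all tested genes, 2.94% rose and 1.3% fell at that threshold. At an unadjusted p below 0.05 there was 1, with a negative log2 fold change (6.92% of all tested genes). Pck1, the gluconeogenic enzyme that insulin represses, was past the fold threshold downward, as were 3.75% of all tested genes. It was 4.46 to 6.17 on the hCNR1+/+ arrays and 2.62 to 4.08 on the hCNR1-/- arrays, so that every hCNR1-/- value was below the lowest control value. Among all tested genes, 5.04% were lower without overlap. Pck1 was 3.50-fold lower in hCNR1-/- hepatocytes (log2 fold change -1.81, SE 0.44, adjusted p = 0.052). The other genes that insulin represses had small values, with G6pc, glucose-6-phosphatase, at 0.33 (SE 0.28) and Igfbp1 at -0.13 (SE 0.30), and the coactivator gene Ppargc1a was not tested. Of the genes that insulin induces, the lipogenic regulator Srebf1 had -0.36 (SE 0.32) and fatty acid synthase Fasn -0.01 (SE 0.37). The genes Acaca, Acacb and Scd1, for enzymes of fatty acid metabolism, had 0.35 (SE 0.39), -0.33 (SE 0.30) and -0.92 (SE 0.68).

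**Figure D5:**
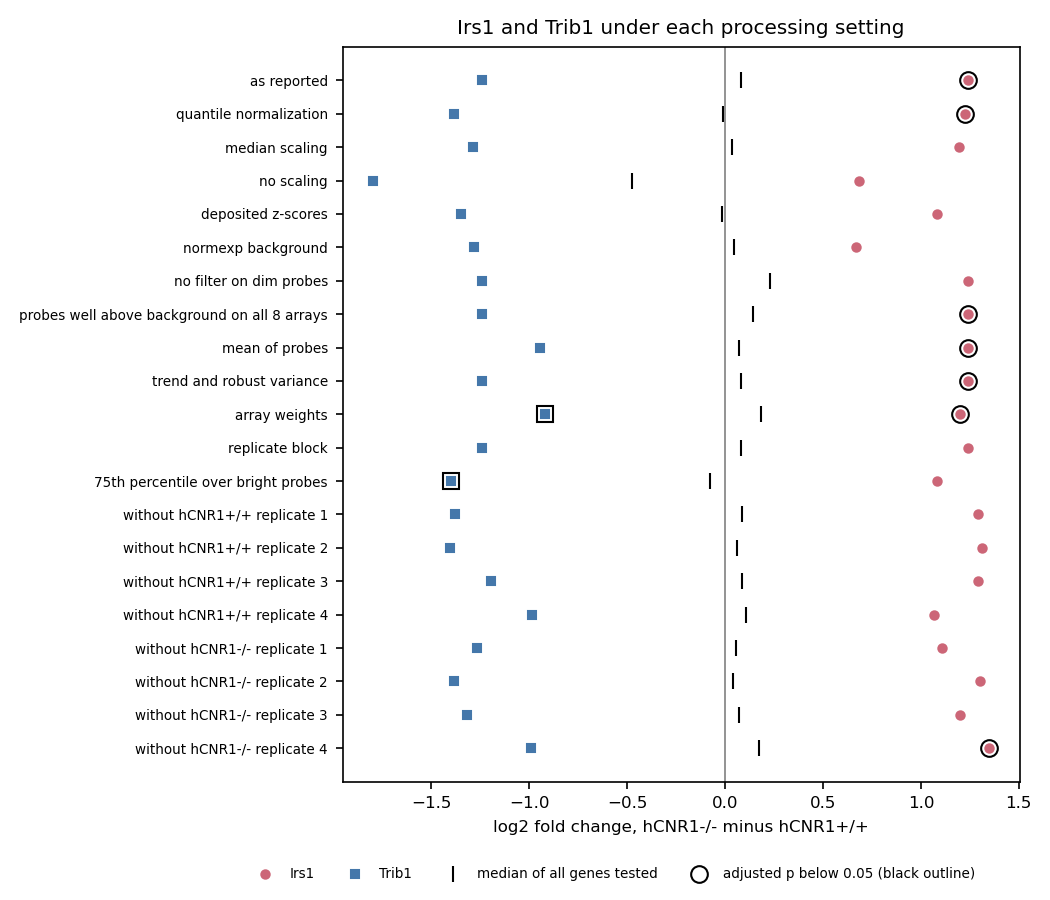
The log2 fold change of Irs1 (circles) and Trib1 (squares) as reported and under each other way of processing or with 1 array left out, beside the median of all tested genes (black ticks); a black outline marks an adjusted p below 0.05. Irs1 lies between 0.67 and 1.35 and Trib1 between -1.80 and -0.92, and the outline is absent from most settings.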

How the data were processed

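The authors deposited Agilent Feature Extraction 12.0.3.1 output for each 1-colour array. Its processed intensity is corrected for background within the array and not scaled between arrays. A second deposited value, a score for every spot, equalled the array's z-scored log intensity to within 0.005. The array design was annotated on mm9, and accessions were named through RefSeq (GRCm38.p6).

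Of 59305 non-control spots, outlier-flagged ones were left out and spots of a probe were averaged on the log2 scale. Each array was scaled by its 75th percentile. A gene entered the test through its brightest probe that was well above background in 4 or more of 8 arrays, and was tested by limma 3.58.1 (R 4.3.3; lmFit and eBayes), and p-values were Benjamini-Hochberg adjusted over 11072 genes. The number of arrays limits the precision. Scripts were tested on simulated data.

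The members and lists were chosen with earlier results of these data known. Values in every array are given for members past either threshold and for the member of each role with the smallest p. Other members shown by array (Irs2, Grb2, Grb10, Pdpk1, Prkaa1, Sesn2) were chosen after their values were seen. One gene of the insulin-responsive list is counted but not reported here by name.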

Additional observations from a re-analysis of the deposited data

Results flagged for a closer look

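Of 84 sets of 4 values (42 members in 2 genotypes), 11 had 1 array far from the other 3 by the Dixon ratio, where chance gives about 1 in 20. Of the 11, 8 were on the fourth hCNR1-/- array, the dimmest. There the log2 signal was high for Irs2 (5.05) and Rictor (3.68). It was low for Grb2 (3.77), Grb14 (2.02), Pik3cb (-2.41), Tsc1 (0.12), Rheb (1.24) and Mtor (-1.56). Without that array 35 of 42 members had a positive log2 fold change, the members' median was 0.25 and that of all tested genes 0.17. The log2 fold change of Grb14 was then 0.40. In the hCNR1+/+ group, Irs1 was low on replicate 4 (-1.20), Grb10 was high on replicate 3 (3.98) and Ptpn1 was low on replicate 2 (0.97). Without hCNR1+/+ replicate 2, Ptpn1 had a log2 fold change of 0.14.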

How the results depend on the processing

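The count of members that rose at the adjusted threshold, 1 as reported, was 0 with median scaling, with no scaling, on the deposited z-scores, with normexp background, with no filter on dim probes, with the replicate number as a block and with the 75th percentile taken over bright probes, an alternative chosen after seeing the data. Over all tested genes 325 rose as reported, and 25, 1, 30, 28, 8, 0 and 101 under these settings in turn. The count of members that rose was 6 with array weights, where the fourth hCNR1-/- array had a weight of 0.099. With 1 array left out it was 0 to 2, where 13 to 1121 of all tested genes rose. The count that fell, 0 as reported, was 2 with array weights and 1 (Trib1, adjusted p = 0.044) over bright probes. Over bright probes 209 of all tested genes fell. With array weights the members past it were Irs1, Eif4ebp1, Grb2, Gsk3a, Prkaa1 and Prkag1, higher, and Prkab2 and Trib1, lower, while over all genes 2176 were higher and 646 lower, against 325 and 144 as reported. At the fold threshold the count of higher members was 0 with no scaling and with normexp background. Over all tested genes, 87 and 145 were then higher, against 529 as reported. The count of lower members was 2 with no scaling, 0 with the mean of probes and 0 to 1 with 1 array left out. Over all tested genes, 630, 406 and 329 to 478 were then lower, against 415 as reported. With array weights the 1 lower member was Grb10 in place of Trib1. Of the other pathway genes, those higher at the fold threshold numbered 0 with no scaling, with normexp background and with the filter on all 8 arrays, and 2 with array weights. Over all tested genes, 324 of 8371 were higher with that filter and 572 with array weights. The other pathway genes that were lower numbered 1 to 4 with 1 array left out. The cause was not tested.

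No scaling moved the median of all tested genes from 0.08 to -0.47 and that of the members from 0.18 to -0.37. The gap between these medians could not change, because the scaling subtracts the same value from every gene of an array. With no filter on dim probes the median was 0.17 for the members and 0.23 for all tested genes. The shift with no scaling also turned the sign of Akt1 (-0.13), Gsk3a (-0.11), Tsc2 (-0.12) and Prkcz (-0.24), and the mean of probes turned Prkcz (-0.15). Irs1 stayed positive under all settings run, from 0.67 to 1.35, and Trib1 negative, from -1.80 to -0.92. Same-numbered replicates were not paired (correlations of their deviations from the group means 0.21, -0.16, -0.05 and 0.02). With the replicate block, Irs1 had an adjusted p of 0.080, and over all tested genes 0 were higher and 0 lower at the adjusted threshold.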
